A study of Mus musculus with 24 samples.

Results

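Liver makes glucose from lactate, amino acids and glycerol when food is short. Glucagon raises cAMP in hepatocytes, protein kinase A then activates the transcription factor CREB with its CRTC coactivators, and glucocorticoids add to the response, whereas insulin opposes it by driving FOXO1 out of the nucleus. Transcription of a few enzyme genes is part of this control, and their messenger RNA is often read as a sign of the fasting response. The 9 genes described here were chosen by symbol as gluconeogenic or cAMP- and fasting-induced liver genes, out of 27802 genes in the deposited tables, and all 9 passed the filter on low counts. The enzymes are Pck1, the cytosolic phosphoenolpyruvate carboxykinase that commits oxaloacetate to glucose, Fbp1, fructose-1,6-bisphosphatase, Pcx, mitochondrial pyruvate carboxylase, and Tat, tyrosine aminotransferase, a classic target of glucocorticoids and cAMP in amino acid breakdown. The cAMP-responsive regulators are Sik1, a salt-inducible kinase that is induced by CREB and restrains its coactivators, and Ppargc1a, which encodes the coactivator PGC-1 alpha. The regulators on the insulin and fasting side are Foxo1, Irs2, the insulin receptor substrate whose transcription rises in fasting, and Creb3l3, a liver transcription factor released from the endoplasmic reticulum in fasting.

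The libraries came from the livers of 24 adult mice, 1 library per mouse, frozen 2 weeks after surgery. Ablated mice received, in the arcuate nucleus of the hypothalamus, an adeno-associated virus (AAV) with a Cre-activatable caspase 3, so that neurons carrying Cre from the transgene BAC-AT1A-Cre, built on the angiotensin receptor gene, die, among them a subtype of the AgRP neurons that drive feeding. The sources used here give neither the injection of the control mice nor the hour of collection, nor whether mice were fed or fasted when the livers were taken. All mice were housed with free access to Teklad chow. At 22 °C there were 3 ablated females, 3 control females, 3 ablated males and 3 control males. At 30 °C, close to the thermoneutral zone of mice, there were 3 ablated females, 4 control females, 3 ablated males and 2 control males. All 12 mice at 22 °C were of the line Ai39 x BAC-AT1A-Cre with the genotype Halo+/-. At 30 °C 7 of 12 were of that line, 3 carried BAC-AT1A-Cre alone (ablated male 3, control male 1, control female 3), and 2, both ablated, were Ai9 x BAC-AT1A-Cre (male 2 with R+/+ and female 3 with R+/-). Every ablated mouse was Cre+. Of the 12 controls 4 were Cre+, namely 22 °C male 1, both 30 °C males and 30 °C female 4, and 8 were Cre-. In females at 22 °C all ablated mice and no control carried Cre, so Cre and ablation cannot be told apart within that contrast. The loss of neurons cannot be checked in liver RNA.

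Promoter windows of 300 bases (250 before and 50 after the start site; RefSeq, GRCm38.p6) were held for 8 of the 9 genes, in 10 windows. The following are shown because Pck1 is the gene on which the ablation results turn, Tat varied most like it, and Ppargc1a is the other one whose window holds a cAMP response element core close to the start site. Capitals mark matches to that core, TGACG on either strand.
Pck1, chr2:173152823-173153122, plus strand: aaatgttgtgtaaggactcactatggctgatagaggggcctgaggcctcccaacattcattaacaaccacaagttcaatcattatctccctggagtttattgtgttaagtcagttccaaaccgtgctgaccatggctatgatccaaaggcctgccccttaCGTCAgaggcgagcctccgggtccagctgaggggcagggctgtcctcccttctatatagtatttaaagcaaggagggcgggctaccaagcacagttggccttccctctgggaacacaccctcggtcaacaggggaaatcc
Tat, chr8:109990186-109990485, plus strand: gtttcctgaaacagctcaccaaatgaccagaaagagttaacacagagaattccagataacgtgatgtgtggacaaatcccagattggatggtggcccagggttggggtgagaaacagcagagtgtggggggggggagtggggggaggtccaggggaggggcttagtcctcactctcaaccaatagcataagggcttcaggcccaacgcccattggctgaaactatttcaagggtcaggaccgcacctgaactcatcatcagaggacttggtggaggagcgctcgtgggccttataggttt
Ppargc1a, chr5:51567676-51567975, minus strand: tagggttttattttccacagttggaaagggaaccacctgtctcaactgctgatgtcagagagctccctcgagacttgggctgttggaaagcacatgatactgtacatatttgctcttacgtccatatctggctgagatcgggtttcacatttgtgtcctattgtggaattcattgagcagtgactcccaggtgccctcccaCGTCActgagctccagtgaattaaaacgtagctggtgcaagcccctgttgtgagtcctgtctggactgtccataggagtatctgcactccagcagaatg
The match in Pck1 begins at position -90 from the start site, and that in Ppargc1a at -49. A window of Creb3l3 held the same core at -239, and its other window held the glucocorticoid receptor core TGTTCT at -231 and -30. Neither the full cAMP response element TGACGTCA nor the FOXO core TGTTTAC was found in any of the 10 windows. Of 32851 mouse promoter windows of this length, 20.8% hold TGACG, 1.79% TGACGTCA, 3.65% TGTTTAC and 18.97% TGTTCT on either strand. A full element also holds the core, and a match of letters is not a binding site.

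Depth was 21691653 to 34851108 reads in genes. The library of 30 °C control male 1 stood apart from the rest, with no reads for 6372 of the 20213 genes tested, against 1667 to 3970 in the others, and the highest mitochondrial share was in 22 °C control female 3. Beside the results that rest on either, values of Pck1 or Sik1 without it are given. Hepatocyte markers summed to 64187 to 104240 CPM (reads scaled to a common library size), and kidney tubule markers to 0 to 6.82 CPM. Nothing in the labels says that same-numbered mice of different groups belong together. In whole tissue, fewer cells of a type and less RNA per cell cannot be told apart.

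Set per gene length, the abundance of the 9 messages spanned a wide range. The median over 24 libraries was 514 FPKM (abundance per transcript length and depth, the authors' values) for Pck1, 254.5 for Tat, 165 for Fbp1, 114 for Creb3l3 and 54.7 for Pcx. The other 4 genes, all regulators, lay far lower, at a median of 3.47 FPKM for Sik1, 3.33 for Irs2, 2.23 for Foxo1 and 1.55 for Ppargc1a. The scarcest of them, Ppargc1a, still had 147 to 665 reads per library. The ratio of the highest to the lowest library in CPM was 5.57 for Pck1, 4.75 for Sik1 and 3.92 for Tat, whereas Creb3l3 varied 1.75-fold, Foxo1 1.90-fold and Pcx 1.99-fold. Variation between mice of 1 group followed the same split. The within-group SD of log2 CPM was 0.62 for Tat, 0.45 for both Pck1 and Sik1, and 0.18 for Pcx, against a median of 0.61 over all tested genes.

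**Figure D1:**
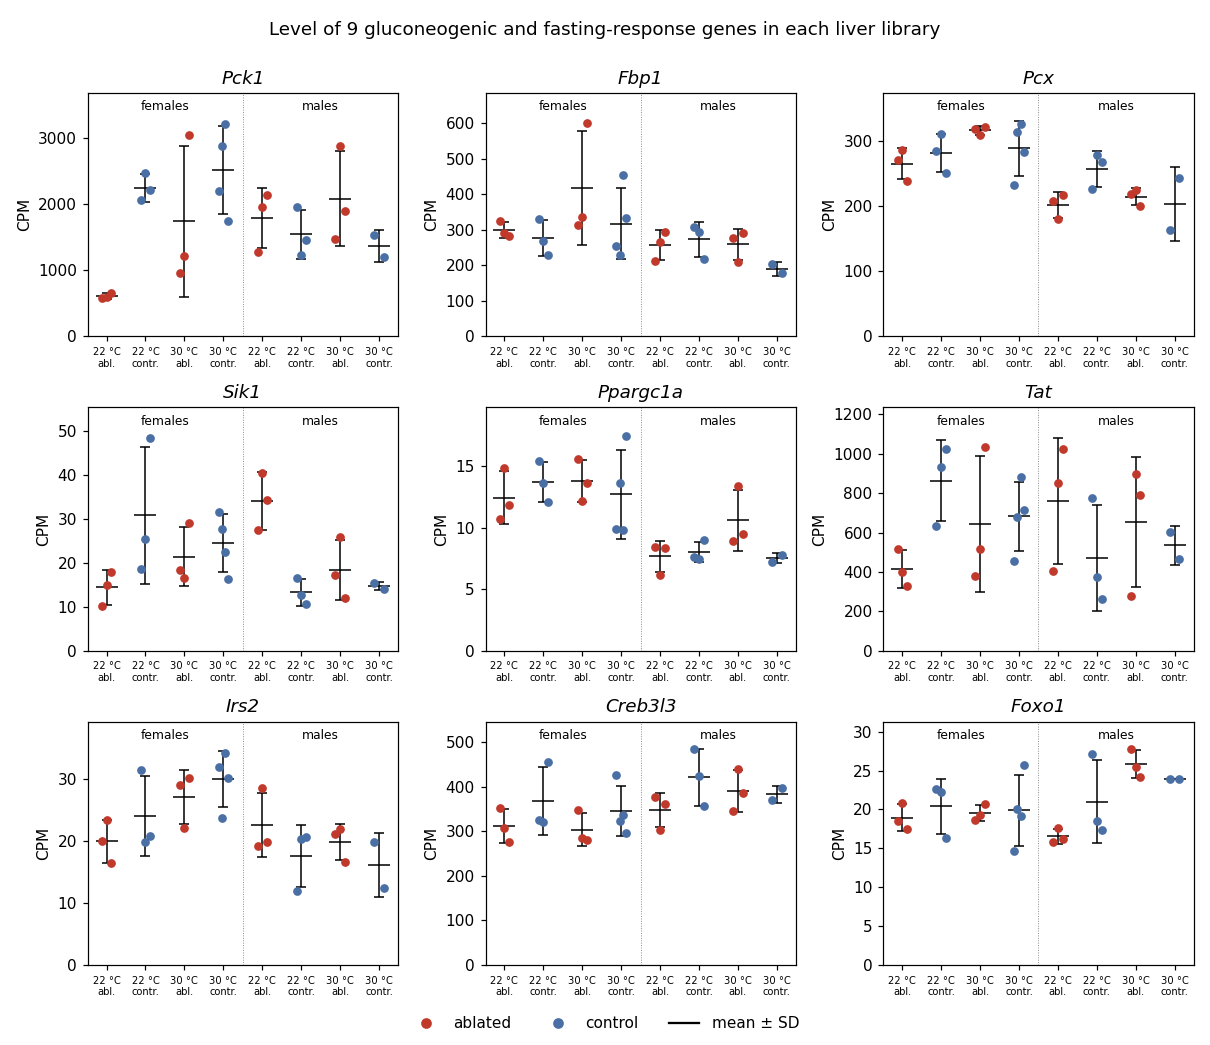
Level of each gene in CPM (y axis, from 0) in every library, by group, with females left and males right of the dotted line. Points are mice, red for ablated and blue for control, and bars are mean ± SD. The 3 ablated females at 22 °C are the lowest of all 24 libraries for Pck1, at 577 to 657 CPM.

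The first comparison asked what loss of these neurons did in mice kept at 22 °C, with the effects in females and males averaged. None of the 9 genes was called by edgeR's quasi-likelihood test at an adjusted p under 0.05, where 0.094% of all tested genes were. An unadjusted p under 0.05 was reached by 1 of 9, against 8.34% of all genes. DESeq2 called 1 of 9 and limma voom none. No gene separated the 6 ablated from the 6 control libraries, which 0.5% of all genes did. The 1 gene with an unadjusted p under 0.05 was Pck1. In ablated mice it ranged from 577 to 2131 CPM with a median of 963, against 1227 to 2471 CPM with a median of 2004 in control mice. Its log2 fold change was -0.84 ± 0.23 (SE; adjusted p = 0.226), and it was called with DESeq2 (adjusted p = 0.0322), in a fit of only these 12 mice (0.0188) and without the low-count filter, the adjusted p over the other settings tried reaching 1. Without 22 °C control female 3 it was -0.85 (adjusted p = 0.399), and Sik1 stood at 0.37 (adjusted p = 0.763). The 3 lowest of the 6 ablated libraries were the females and the 3 highest the males. The other log2 fold changes lay between -0.26 ± 0.13 for Creb3l3 and 0.13 ± 0.23 for Sik1, with 6 of 9 negative and a median of -0.18 over the 9 genes, against 0.02 over all tested genes.

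The ablation effect at 22 °C was then compared between the sexes, and Sik1 and Pck1 had the lowest p of the 9. The difference, females minus males, was -2.46 ± 0.46 on the log2 scale for Sik1 (adjusted p = 0.116), -2.09 ± 0.47 for Pck1 (adjusted p = 0.176) and -1.75 ± 0.67 for Tat (adjusted p = 0.726). None was called by edgeR, and neither was any other gene of the genome (0%). Sik1 ranked 2 and Pck1 ranked 16 among 20213 genes by p, and 3 of 9 had an unadjusted p under 0.05 against 6.26% of all genes. DESeq2 called Sik1 (adjusted p = 0.00179) and Pck1 (adjusted p = 0.00468), and a fit of only the mice at 22 °C called both too. Limma voom called none. Over all settings and libraries left out the adjusted p ran up to 0.487 for Pck1 and 0.300 for Sik1, and the difference for Sik1 stayed between -2.72 and -1.996. The value of -1.996 was that without 22 °C control female 3 (adjusted p = 0.0897), where Pck1 had -2.13 (adjusted p = 0.206). The effect within each sex was then read from the same fit, a step chosen after this difference was seen.

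Pck1 fell in ablated females at 22 °C. The 3 ablated females had 577, 591 and 657 CPM, against 2054, 2471 and 2212 CPM in the 3 control females. The groups were far apart, and each ablated female also lay below every other library of the study, the next being 30 °C ablated female 1 at 950 CPM. The mean was 608 ± 42.8 CPM in ablated and 2246 ± 211 CPM in control females (SD, n = 3 each), 3.69-fold lower (log2 fold change -1.88 ± 0.34, edgeR, adjusted p = 0.0309). It was the only one of the 9 called, where 0.0297% of all genes were. The size held at -1.94 to -1.82 when any 1 of the 6 libraries was left out, but the call was lost each time (adjusted p = 0.0970 to 0.271), including without 22 °C control female 3 (-1.91, adjusted p = 0.148). It was also lost with a term for Cre in the fit (-1.84, adjusted p = 1). DESeq2 (adjusted p = 8.46e-06) and limma voom (adjusted p = 0.0135) called it. Among control mice of 1 sex and temperature that hold both genotypes, the Cre+ female at 30 °C had 1743 CPM against 2202, 2882 and 3216 CPM in the Cre- females, and the Cre+ male at 22 °C had 1954 CPM against 1227 and 1450 CPM in the Cre- males. In 1 sex the Cre+ control was the lowest and in the other the highest, with 1 Cre+ mouse in each case. No control female at 22 °C was Cre+, so Cre and ablation cannot be told apart there.

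Sik1 and Tat, too, were lower in every ablated female than in every control female at 22 °C, giving 3 of 9 where 4.99% of all genes separated in that direction and 6.91% in the other. Sik1 had 10.2, 14.9 and 18.004 CPM in ablated females, against 18.7, 25.4 and 48.5 CPM in control females. The highest ablated and lowest control value nearly touched, and the log2 fold change of -1.10 ± 0.33 was not called (adjusted p = 0.467). It was -0.63 without control female 3, the library of 48.5 CPM. Tat stood at 515, 401 and 328 CPM in ablated females, against 634, 931 and 1026 CPM in control females (log2 fold change -1.06 ± 0.48, adjusted p = 0.912). An unadjusted p under 0.05 was reached by these 3 of 9, against 5.17% of all genes. The other genes differed less: Fbp1 by 0.11 ± 0.24, Pcx by -0.09 ± 0.18, Ppargc1a by -0.14 ± 0.25, Irs2 by -0.27 ± 0.24, Creb3l3 by -0.24 ± 0.19 and Foxo1 by -0.11 ± 0.21 on the log2 scale. For these 6 the libraries of ablated and control females overlapped.

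In males at 22 °C the gene with the lowest p was Sik1. Ablated males had 27.5, 40.5 and 34.3 CPM of Sik1, against 16.6, 12.7 and 10.6 CPM in control males. All ablated males exceeded all control males, the mean being 34.1 ± 6.52 CPM in ablated and 13.3 ± 3.07 CPM in control males (SD, n = 3 each), and the log2 fold change was 1.36 ± 0.33 (edgeR, adjusted p = 0.143). DESeq2 called it (adjusted p = 0.0255), as did a fit of only these groups, while limma voom did not, with adjusted p up to 0.378 over the settings tried and 0.720 when a library was left out. No gene of the 9 was called by edgeR, against 0.094% of all genes, and 1 of 9 had an unadjusted p under 0.05, against 7.54%. Pck1 did not separate, with 1268, 1951 and 2131 CPM in ablated males and 1954, 1227 and 1450 CPM in control males (0.21 ± 0.33). Tat also overlapped between groups, at 405, 852 and 1025 CPM in ablated males and 777, 374 and 264 CPM in control males (0.69 ± 0.48). Pyruvate carboxylase (Pcx) was lower in all ablated males than in all controls, with 208, 180 and 217 CPM in ablated males against 226, 278 and 268 CPM in control males (-0.35 ± 0.18, adjusted p = 0.652). In males 1 of 9 genes therefore separated upward, where 7.97% of all genes did, and 1 of 9 downward, where 7.37% did.

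**Figure D2:**
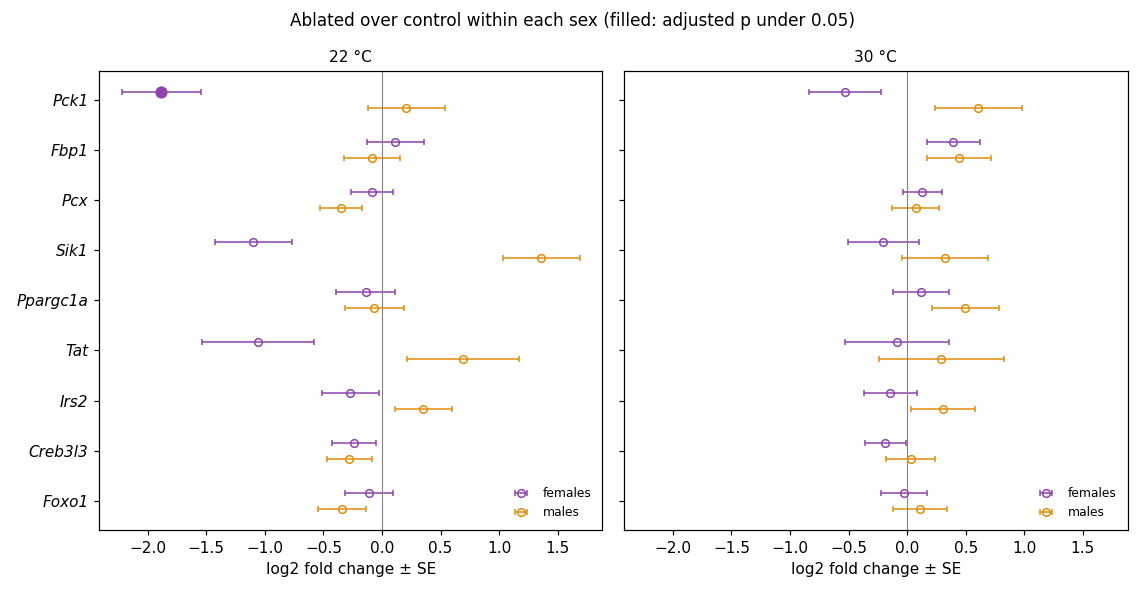
Log2 fold change of each gene, ablated over control, with its SE (x axis), in females and in males at 22 °C (left) and at 30 °C (right). The filled point is the only one called, Pck1 in females at 22 °C (-1.88 ± 0.34). At 22 °C Sik1 stands at -1.10 in females and 1.36 in males.

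Other cell types were followed in the same libraries. In females at 22 °C hepatocyte markers summed to 75042 to 76581 CPM in ablated mice and 64187 to 100980 CPM in controls, ranges that overlap. Of 8 tested markers 6 were negative. Of these, 2 had an unadjusted p under 0.05, Apoa1 (-0.875 ± 0.23) and Hnf4a (-0.54 ± 0.18), against 5.17% of all genes. Periportal hepatocyte markers were negative in 5 of 8, with 2 lower and 1 higher at that threshold. Pericentral hepatocyte markers were negative in 6 of 9, with 2 lower and 0 higher at that threshold. Kupffer cell and macrophage markers summed to 276 to 317 CPM in ablated and 192 to 208 CPM in control females, with 8 of 8 tested markers positive and none called. Sinusoidal endothelial markers summed to 223 to 258 CPM in ablated and 176 to 222 CPM in control females, again with 8 of 8 positive and none called. The adipocyte list summed to 1437 to 1968 CPM in ablated and 1008 to 1036 CPM in control females, and held Car3, a carbonic anhydrase that mouse hepatocytes make too, while Adipoq had no reads in 22 and Lep in 23 of 24 libraries. Mitochondrial transcripts took 18.3% to 27.6% of reads in ablated and 13.8% to 37.3% in control females. In males at 22 °C pericentral hepatocyte markers summed to 2837 to 5298 CPM in ablated mice and 4983 to 7677 CPM in controls, with 9 of 9 negative, 3 of them at an unadjusted p under 0.05. Erythroid markers summed to 137 to 147 CPM in ablated and 261 to 517 CPM in control males, without overlap, with 7 of 7 tested markers negative (median -1.66) and 3 at an unadjusted p under 0.05. Cholangiocyte markers were positive in 7 of 7 (median 0.99), with sums of 108 to 287 CPM in ablated and 102 to 147 CPM in control males. Periportal hepatocyte markers were positive in 6 of 8, 3 of them at an unadjusted p under 0.05, with sums of 2829 to 3294 CPM in ablated and 2384 to 2895 CPM in control males. Stellate cell and fibroblast markers summed to 181 to 314 CPM in ablated and 130 to 171 CPM in control males. These did not overlap either, and 7 of 8 were positive. The adipocyte list, higher in ablated females, summed to 1178 to 1351 CPM in ablated and 1631 to 2147 CPM in control males. It too did not overlap, with 2 of 5 tested markers positive. None of these markers was called. The part of these differences in the results for Pck1 and Sik1 was not tested.

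At 30 °C ablation left no gene of the 9 called, nor any gene of the genome (0%). An unadjusted p under 0.05 was reached by 1 of 9, against 6.96% of all genes, and no gene separated the 6 ablated and 6 control libraries, which 0.203% did. DESeq2 and limma voom called none of the 9. The 1 gene was Fbp1, at 210.2 to 602 CPM (median 303) in ablated mice and 177 to 454 CPM (median 242) in controls, a log2 fold change of 0.42 ± 0.18 (adjusted p = 0.693). Pck1 averaged 1909 ± 874 CPM in ablated mice, against 2128 ± 791 CPM in controls (SD, n = 6 each). The log2 fold change of 0.04 ± 0.24 averages females and males with equal weight, whereas the means are over 3 females and 3 males in ablated mice and 4 females and 2 males in controls. Without 30 °C control male 1 it was 0.13 (adjusted p = 0.990), and Sik1 stood at 0.09 (adjusted p = 1). Among ablated females at 30 °C Pck1 spread widely, with 950, 1217 and 3050 CPM, against 2202, 2882, 3216 and 1743 CPM in control females (-0.53 ± 0.31, adjusted p = 1). The 3050 CPM belonged to female 3, the only ablated female of the Ai9 line and the library with the lowest mitochondrial share of all, 7.53%. Without it the log2 fold change was -1.21 (adjusted p = 1). In ablated males it had 1478, 2873 and 1889 CPM, against 1533 and 1195 CPM in control males (0.61 ± 0.37, adjusted p = 0.712). Without control male 1 this was 0.80 (adjusted p = 0.906). Within either sex at 30 °C edgeR, DESeq2 and limma voom called none of the 9, none had an unadjusted p under 0.05, and no gene of the genome was called (0% in females and 0% in males). Fbp1, Ppargc1a and Foxo1 were higher in all 3 ablated males than in both control males. The share of all genes that separated 3 from 2 libraries in this way was not counted. The sex difference in the ablation effect was -1.14 ± 0.48 for Pck1 (adjusted p = 0.744), the lowest p of the 9, and -1.33 without 30 °C control male 1 (adjusted p = 0.994). Irs2 then had -0.82 (adjusted p = 0.994), and these 2 genes had an unadjusted p under 0.05. Again 0 of 9 and 0% of all genes were called by edgeR, none of the 9 by the other tools, and 1 of 9 had an unadjusted p under 0.05 against 6.64% of all genes.

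Whether ablation acted differently at 22 °C than at 30 °C was tested as a difference of effects. For Pck1 it was -0.88 ± 0.33 (adjusted p = 0.648), and for the other 8 genes it ran from -0.41 ± 0.26 for Ppargc1a to 0.07 ± 0.33 for Sik1. Without 30 °C control male 1 Pck1 had -0.97 (adjusted p = 0.679), and without 22 °C control female 3 it had -0.90 (adjusted p = 0.655). Neither edgeR, DESeq2 nor limma voom called any of the 9, and edgeR called 0% of all genes. An unadjusted p under 0.05 was reached by 1 of 9, against 7% of all genes. In Ai39 x BAC-AT1A-Cre mice alone, with sex as an additive term, the difference for Pck1 was 0.03 (adjusted p = 1), with -0.76 for ablation at 22 °C and -0.79 at 30 °C. At 30 °C this fit held only 3 ablated and 4 control mice. An additive sex term does not let the ablation effect differ between females and males. With so few mice, the fit does not show that the effects were equal. Only the 30 °C groups held other lines, and the part of line in these values was not tested.

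The second axis of the design was temperature. In control mice at 22 °C over 30 °C none of the 9 genes was called by edgeR, DESeq2 or limma voom, where edgeR called 0.0346% of all genes, and none reached an unadjusted p under 0.05, against 12.6% of all genes. All log2 fold changes lay between -0.09 ± 0.18 for Irs2 and 0.16 ± 0.18 for Fbp1, and Pck1 stood at 0.01 ± 0.24. Without 30 °C control male 1 they lay between -0.08 for Foxo1 and 0.21 for Fbp1, and without 22 °C control female 3 Sik1 had -0.15 (adjusted p = 0.917). No gene separated the 6 libraries at 22 °C from the 6 at 30 °C, which 0.331% of all genes did. In ablated mice, 22 °C over 30 °C, Pck1 had -0.87 ± 0.23 (adjusted p = 0.183) and Foxo1 -0.34 ± 0.15 (adjusted p = 0.439). These 2 of 9 compare with 9.78% of all genes. EdgeR and limma voom called none of the 9, against 0.0346% of all genes for edgeR, DESeq2 called Pck1 (adjusted p = 0.0210), and none of the 9 separated the groups, as 0.811% of all genes did. Of the 9, 8 were lower at 22 °C, with a median of -0.21 against 0.00 over all genes. In mice of the Ai39 line only, with sex as an additive term, Pck1 was -0.12 (adjusted p = 1). That fit held 6 ablated mice at 22 °C and 3 at 30 °C.

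Split by sex, the temperature difference in ablated females lay in Pck1, with 577, 591 and 657 CPM at 22 °C against 950, 1217 and 3050 CPM at 30 °C. The log2 fold change was -1.52 ± 0.33 (adjusted p = 0.122), not called by edgeR, which called 0.0495% of all genes here, but called by DESeq2 and, in edgeR, without 30 °C ablated female 1. Without 30 °C ablated female 3 it was -0.83 (adjusted p = 1). The other log2 fold changes in ablated females ran from -0.63 ± 0.48 for Tat to 0.04 ± 0.19 for Creb3l3. Like Pck1, Pcx was lower in every ablated female at 22 °C than at 30 °C (-0.25 ± 0.18, edgeR, adjusted p = 0.643). The share of all genes that separated in this contrast was not counted. In ablated males Foxo1 had 15.8, 17.7 and 16.2 CPM at 22 °C, against 27.8, 25.5 and 24.2 CPM at 30 °C (-0.64 ± 0.21, adjusted p = 0.338). These libraries did not overlap between the temperatures, and neither did those of Ppargc1a (log2 fold change -0.47). Of all genes, 6.78% separated with lower values at 22 °C. Sik1 had 27.5, 40.5 and 34.3 CPM at 22 °C, against 17.2, 25.8 and 12.1 CPM at 30 °C in the same sex (0.89 ± 0.32, adjusted p = 0.471), also without overlap, as 7.38% of all genes did with higher values at 22 °C. None of these 3 was called by edgeR, DESeq2 or limma voom, with 0.0396% of all genes called by edgeR.

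**Figure D3:**
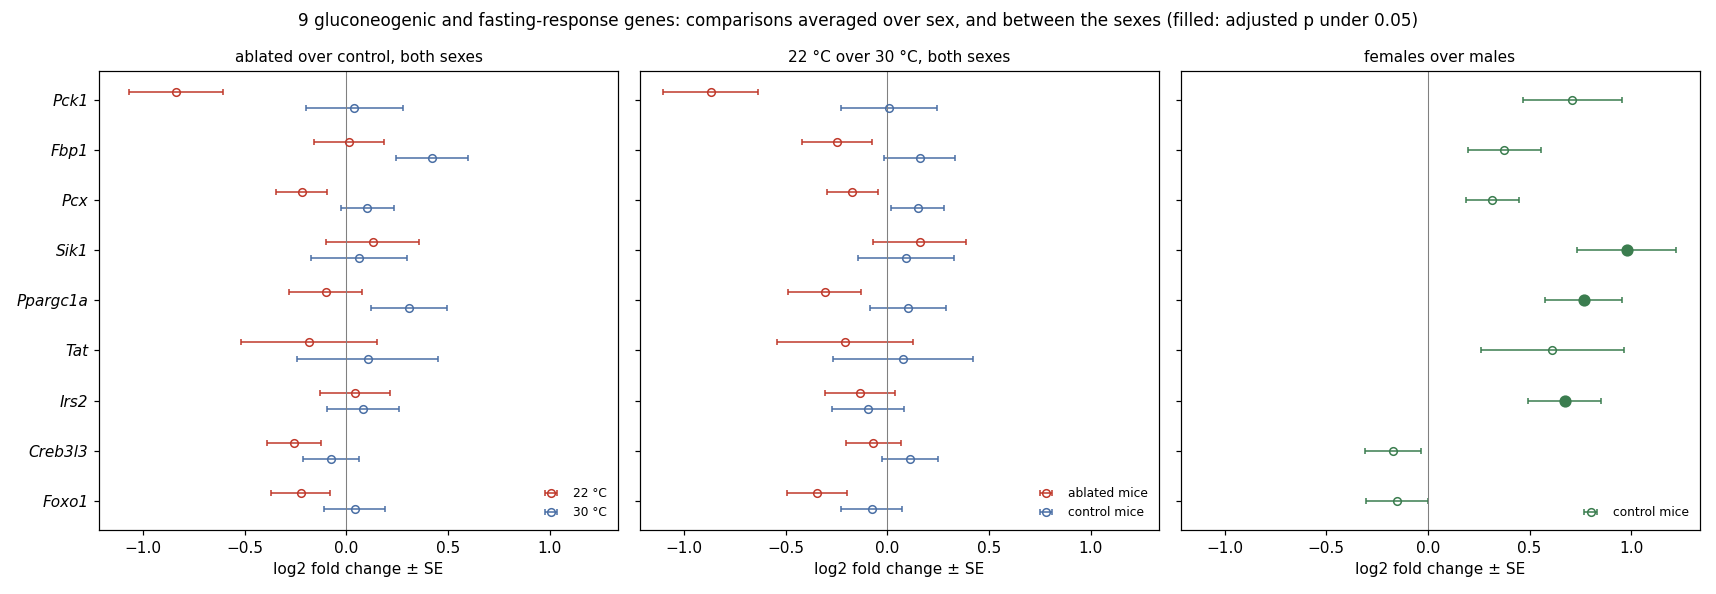
Log2 fold change with its SE (x axis) of each gene, averaged over both sexes, for ablation at each temperature (left), for 22 °C over 30 °C in ablated and control mice (middle), and for females over males in control mice (right). Filled points were called: Sik1, Ppargc1a and Irs2 in the right panel, at 0.98, 0.77 and 0.67.

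Sex alone was compared in control mice, the comparison with the most calls among the 9 genes. Over both temperatures 3 of 9 were called higher in females than in males (edgeR, 7 females and 5 males), where 2.81% of all genes were called in either direction, and 6 of 9 had an unadjusted p under 0.05, against 15.2% of all genes. DESeq2 called these 3 and Pck1, limma voom called Ppargc1a and Irs2 but not Sik1 (adjusted p = 0.0602), and a fit of only the control mice called Sik1 alone. Sik1 had 16.4 to 48.5 CPM (median 25.4) in the 7 control females, whereas the 5 control males had 10.6 to 16.6 CPM (median 14.02). Only the lowest female lay within the male range, and the log2 fold change was 0.98 ± 0.24 (adjusted p = 0.0233). Ppargc1a did not overlap, with 9.85 to 17.5 CPM (median 13.7) in control females and 7.23 to 9.004 CPM (median 7.62) in control males, a log2 fold change of 0.77 ± 0.19 (adjusted p = 0.0176). Such a separation, higher in females, was seen for 0.9% of all genes. Irs2 had 19.8 to 34.1 CPM (median 30.1) in control females and 11.9 to 20.7 CPM (median 19.8) in control males, overlapping at the edge, with 0.67 ± 0.18 (adjusted p = 0.0335). For Pck1 the range was 1743 to 3216 CPM in females, against 1195 to 1954 CPM in males, all of them controls (0.71 ± 0.24, adjusted p = 0.136), Fbp1 differed by 0.38 ± 0.18 and Pcx by 0.32 ± 0.13, and none of these 3 was called. Tat had 0.61 ± 0.35, and Creb3l3 and Foxo1 were on the other side of 0 at -0.17 ± 0.14 and -0.15 ± 0.15. Without 30 °C control male 1 only Irs2 was called (0.86, adjusted p = 0.0228), while Sik1 stood at 1.01 (adjusted p = 0.117) and Ppargc1a at 0.74 (adjusted p = 0.0953). Without 22 °C control female 3 Ppargc1a and Irs2 were called and Sik1 was not (0.74, adjusted p = 0.0548). Leaving out any 1 of the 12 controls kept Sik1 called in 7 cases, Ppargc1a in 10 and Irs2 in 7. Cre was carried by 1 of 7 control females and 3 of 5 control males, and with a term for Cre only Ppargc1a was called.

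Set side by side at 22 °C, Sik1 averaged 14.4 ± 3.93 CPM in ablated females, 30.8 ± 15.6 CPM in control females, 34.1 ± 6.52 CPM in ablated males and 13.3 ± 3.07 CPM in control males (SD, n = 3 each). The 3 ablated males, at 27.5 to 40.5 CPM, lay within the span of the control females only through control female 3, at 48.5 CPM. They lay above control females 1 and 2, at 18.7 and 25.4 CPM. For Tat the means were 415 ± 94.5 CPM in ablated females, 864 ± 204 CPM in control females, 761 ± 320 CPM in ablated males and 472 ± 270 CPM in control males. Ppargc1a kept the order of the sexes at 22 °C in both conditions, at 12.5 ± 2.13 CPM in ablated females, 13.7 ± 1.66 CPM in control females, 7.68 ± 1.29 CPM in ablated males and 8.04 ± 0.84 CPM in control males.

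How the genes varied together within groups was read from log2 CPM after the mean of each of the 8 groups was subtracted, over 24 libraries and 36 pairs. None of the pairs passed an adjusted p under 0.05 in a permutation test that shuffled libraries within groups. The closest pair was Pck1 and Tat, with Pearson r = 0.75 (permutation p = 0.00189, adjusted p = 0.0680) and Spearman rho = 0.75 (permutation p = 0.00139, adjusted p = 0.05004). Without the 2 libraries farthest from the Pck1 median r was 0.70. Pck1 and Sik1 had r = 0.55 and rho = 0.59 (permutation p = 0.0119 and 0.00990, adjusted p = 0.214 and 0.178), and r = 0.51 without the 2 farthest. The libraries share a common scaling, and 17 of the 36 correlations were positive.

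**Figure D4:**
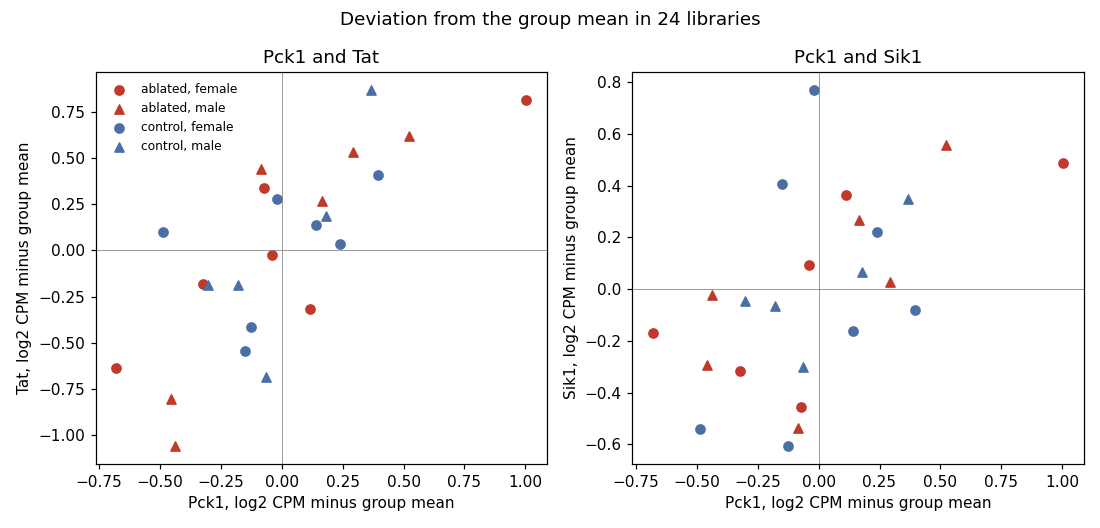
Deviation from the group mean in log2 CPM of Tat (left) and Sik1 (right) on the y axis against that of Pck1 on the x axis, 1 point per library, colour by ablation and shape by sex. Tat rises along Pck1 (r = 0.75 over 24 libraries), and Sik1 follows it more loosely (r = 0.55).

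Among 11568 other well-measured genes, the 3 whose deviations over the 24 libraries were most like those of Pck1 were Man2a1 (a Golgi mannosidase, r = 0.85), Susd4 (0.83) and Sds (serine dehydratase, which turns serine into pyruvate, 0.80). For Sik1 they were Gm29966, Zfp750 and Frmd4b, at 0.78, 0.78 and 0.76. For Irs2 they were Tcp11l2, Sft2d1 and Myo1e, at 0.85, 0.79 and 0.78. For Ppargc1a they were Dclre1b (a DNA repair nuclease), B3gnt8 and Hnf4aos, at 0.81, 0.79 and 0.74. These are the highest of many values and carry no test.

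The wider pathway was read from lists of other genes. For ablation at 22 °C edgeR called none of 25 tested gluconeogenic enzymes and carriers, 30 genes of glucagon and cAMP signalling, 24 of insulin and FOXO signalling, 19 of the glucocorticoid response and amino acid breakdown, or 16 CREB3L3 and fasting targets. Their median log2 fold changes were -0.09, -0.06, -0.04, -0.09 and 0.05, against 0.02 over all tested genes. An unadjusted p under 0.05 was reached by 1 enzyme or carrier, 8 signalling genes (2 higher, 6 lower), 3 insulin and FOXO genes (1 higher, 2 lower), 3 of the glucocorticoid list (1 higher, 2 lower) and 3 of the fasting list (2 higher, 1 lower), against 8.34% of all genes. The lowest p-values among enzymes were those of Gpd1, glycerol-3-phosphate dehydrogenase (-0.42 ± 0.16, adjusted p = 0.445), and G6pc, glucose-6-phosphatase, the last step to free glucose (-0.89 ± 0.44, adjusted p = 0.612). In the cAMP list they were Per1, a clock gene that CREB induces (-0.82 ± 0.24, adjusted p = 0.289), and Stk11, the kinase LKB1 that activates salt-inducible kinases (-0.32 ± 0.13, adjusted p = 0.483). Pdk4, the kinase that shuts pyruvate dehydrogenase in fasting, had 1.35 ± 0.42 (adjusted p = 0.289), and Ppp1r3b, a glycogen-targeting phosphatase subunit, -0.88 ± 0.32 (adjusted p = 0.455). In the glucocorticoid list they were Tsc22d3, which encodes GILZ (-0.74 ± 0.21, adjusted p = 0.242), and Per2 (-0.80 ± 0.23, adjusted p = 0.259), and in the fasting list Lpin1 (-1.22 ± 0.40, adjusted p = 0.395) and Cidec (1.09 ± 0.44, adjusted p = 0.504).

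In females at 22 °C, 4 of 25 enzymes and carriers had an unadjusted p under 0.05, all lower in ablated mice, against 5.17% of all genes in either direction, none of them called. G6pc was among the 4, named here after its values were seen. It averaged 133 CPM in ablated and 444 CPM in control females (-1.74 ± 0.63, adjusted p = 0.789), against 214.5 CPM in ablated and 220.1 CPM in control males. Sgk1, a glucocorticoid-induced kinase also named after its values were seen, averaged 10.3 CPM in ablated and 19.8 CPM in control females, and 17.6 CPM in ablated and 10.3 CPM in control males. Its sex difference in the ablation effect was -1.72 ± 0.39 (adjusted p = 0.170). The glucocorticoid list held 3 of 19 lower and 0 higher in females at an unadjusted p under 0.05, against 5.17% of all genes, and 5 higher and 2 lower in males, against 7.54%. In females the cAMP list held 1 higher and 3 lower of 30 at that threshold, with 17 of 30 positive (median 0.065). The insulin and FOXO list held 1 higher and 2 lower of 24 (median -0.10). The fasting list held 0 higher and 0 lower of 16 (median -0.18).

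At 30 °C and between temperatures edgeR called no gene of these 5 lists either. For ablation at 30 °C 22 of 25 enzymes and carriers were positive (median 0.20, against 0.05 over all genes), 1 with an unadjusted p under 0.05. In control mice at 22 °C over 30 °C the lowest p in the cAMP list were those of Hdac5 (0.52 ± 0.17, adjusted p = 0.233), a histone deacetylase that carries the glucagon signal to FOXO, and Prkacb, a catalytic subunit of protein kinase A (-0.49 ± 0.16, adjusted p = 0.234). In the insulin list they were the lipogenic factor Srebf1 (0.39 ± 0.14, adjusted p = 0.273) and Foxo3 (-0.24 ± 0.15, adjusted p = 0.502), and in the glucocorticoid list Sgk1 (0.44 ± 0.20, adjusted p = 0.371) and the receptor gene Nr3c1 (-0.22 ± 0.13, adjusted p = 0.494). Among enzymes they were the muscle form Fbp2, which averaged only 0.424 CPM at 22 °C and 0.259 CPM at 30 °C (adjusted p = 0.353), and Gapdh (1.81 ± 0.81, adjusted p = 0.373), and in the fasting list Gadd45b (0.67 ± 0.56, adjusted p = 0.651) and Angptl4 (-0.16 ± 0.14, adjusted p = 0.674). Of the 25 enzymes and carriers, 21 were lower at 22 °C in ablated mice (median -0.22, against 0.00), 2 with an unadjusted p under 0.05, against 9.78% of all genes. In the same comparison 8 of 8 hepatocyte markers (median -0.27) and 8 of 9 pericentral markers (median -0.58) were lower, and 8 of 8 stellate cell and fibroblast markers (median 0.87), 8 of 8 endothelial markers (median 0.475) and 7 of 7 cholangiocyte markers (median 0.37) were higher, none of them called. Their summed levels overlapped, with hepatocyte markers at 73998 to 99406 CPM at 22 °C and 72564 to 93765 CPM at 30 °C, and stellate cell and fibroblast markers at 138 to 314 CPM at 22 °C and 40.5 to 208 CPM at 30 °C. Their part in the values of Pck1 and of the enzymes was not tested.

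In GRCm39, the build of the deposited tables, Pck1 (ENSMUSG00000027513) lies on chromosome 2 at 172994841 to 173001066, Sik1 (ENSMUSG00000024042) on chromosome 17 at 32063224 to 32074778, and Tat (ENSMUSG00000001670) on chromosome 8 at 110717069 to 110726435. Ppargc1a (ENSMUSG00000029167) lies on chromosome 5 at 51611592 to 51725068 and Irs2 (ENSMUSG00000038894) on chromosome 8 at 11034681 to 11058458. Fbp1 (ENSMUSG00000069805) lies on chromosome 13 at 63012567 to 63036096, Pcx (ENSMUSG00000024892) on chromosome 19 at 4560500 to 4671780, Creb3l3 (ENSMUSG00000035041) on chromosome 10 at 80920158 to 80934708 and Foxo1 (ENSMUSG00000044167) on chromosome 3 at 52175757 to 52260642. Other annotated genes overlap Pcx, Ppargc1a, Irs2 and Foxo1, and as the strandedness of the counts is unknown, some reads of these may belong to the neighbour.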

How the data were processed

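RNA of 24 mouse livers was sequenced after poly-A enrichment. Per the submitters' processing notes, the tools were CASAVA, HISAT2 and DESeq2 and the build GRCm39 (mm39). Their versions, the read counter, the annotation release and strandedness were not given in the sources used. The 3 deposited tables hold raw read counts per gene, FPKM, a signal that is the count divided by 1 size factor per library within a table, and gene length in bases (other). The deposited FPKM divide counts by gene length and by 1 factor per library that was 0.860 to 1.13 times the reads in genes. FPKM served for levels between genes and for 1 alternative of the correlations (pseudocount 0.1), and the signal was not tested. Tables were joined on gene identifier to 27802 genes. Values shared by tables were identical (0 differences), and 40326 values of genes absent from a table were set to 0. Libraries of a group differed by more than counting error (chi-square per degree of freedom 27.4 to 421.5), and each was counted once.

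The counts were fitted with edgeR 4.0.16 (R 4.3.3; TMM, filterByExpr, robust quasi-likelihood F test, 8 group means, 16 residual degrees of freedom), and p were adjusted by Benjamini-Hochberg over 20213 genes. Called means an adjusted p under 0.05, and SE is the absolute log2 fold change divided by the root of F. Alternatives used DESeq2 1.42.0, limma 3.58.1 and others named in the closing section. The edgeR p-values set a difference between groups against the spread between mice within groups. That spread was estimated over all 8 groups and moderated across genes. Correlations used log2 CPM (prior count 2) and 100000 permutations. The fit was also run on counts simulated with a change in ablated females at 22 °C alone. These held no other group differences and no outlying library, so they do not test how calls fare with such spread. Figures were drawn with matplotlib 3.10.9. All 9 genes were described in each comparison. From each list the rule named the genes called, otherwise the 2 of lowest p for ablation at 22 °C and for temperature in controls, and for 4 of the genes the 3 most alike. Genes and lists were chosen with earlier results of these data known, and the contrasts within a sex after the sex difference was seen. Replicate numbers do not pair mice: none of 22 same-numbered pairs correlated above 0.1.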

Additional observations from a re-analysis of the deposited data

Results flagged for a closer look

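Sik1 and Irs2 were flagged because ablated mice at 22 °C lay on opposite sides of the control mean in the sexes. Each ablated female lay below the mean of the control females and each ablated male above the mean of the control males. The share of all genes that meet this rule was not counted. The difference in the ablation effect, females minus males, was -2.46 on the log2 scale for Sik1 (edgeR, adjusted p = 0.116) and -0.62 for Irs2 (adjusted p = 0.850), neither past the threshold. In both sexes the Irs2 libraries of ablated and control mice overlapped. Irs2 had 20.001, 23.4 and 16.4 CPM in ablated females, against 31.4, 19.8 and 20.7 CPM in control females, and 19.2, 28.4 and 19.8 CPM in ablated males, against 11.9, 20.3 and 20.7 CPM in control males. In the group of 4, the 30 °C control females, none of the 9 genes had a library far from the others, a check that by chance flags about 1 in 20.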

How the results depend on the processing

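Of 2259 values recomputed for the 9 genes under the alternatives, 2207 kept their side of the threshold, 26 lost a call, 26 gained one, none reversed a called value and 128 uncalled ones changed sign. Without the low-count filter, calls numbered 1 (Pck1) for ablation at 22 °C, 1 (Pck1) for temperature in ablated mice, 3 (Pck1, Sik1, Tat) for the sex difference at 22 °C, 5 for sex in controls, 3 (Pck1, Sik1, Tat) in females and 1 (Sik1) in males at 22 °C, and 1 each for temperature in ablated females (Pck1) and males (Sik1). DESeq2 made 1, 1, 2, 4, 1, 1, 1 and 0 calls in the same order. In fits of only the groups compared there was 1 call for ablation at 22 °C (Pck1), 2 for the sex difference (Pck1, Sik1) and 1 for sex in controls (Sik1). Within the sexes at 22 °C these fits gave 1 call in females (Pck1) and 1 in males (Sik1). A term for Cre left 1 call for sex in controls and 0 in females at 22 °C, where Pck1 had -1.84. The replicate block left 1 call for sex in controls (Sik1) and changed no other call. Replicate numbers did not pair the mice, with correlations of -0.14 to 0.10 over 22 pairs. Leaving out 1 library gave 0 to 1 calls for the sex difference (Sik1 without 22 °C control female 1, adjusted p = 0.0344), 1 to 3 for sex in controls, 0 to 0 in females at 22 °C (Pck1 -1.94 to -1.82), 0 to 1 for temperature in ablated females (Pck1 without 30 °C ablated female 1, adjusted p = 0.0120) and 0 to 1 correlated pairs (Pck1 and Tat, r = 0.78 without 22 °C ablated female 3 and 0.81 without 30 °C control female 4). The cause of these changes was not tested. Fits of only the groups compared equal the reported fit where all 8 groups enter, and Ai39-only fits were not run within or between the sexes. Groups of 2 to 4 mice limit what could be called. Each gene had 147 or more reads in every library. The part of counting error in the spread between mice was not tested. It need not be small where reads are few and the spread is narrow, as for Ppargc1a in control males (152 to 243 reads, 7.83 ± 0.69 CPM, SD, n = 5).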
